A study of Mus musculus with 6 samples.

Results

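Interferon-stimulated genes are the transcripts that cells raise when interferon binds its receptors. The 31 genes described here were taken by symbol from the deposited table of 24421 genes. They are interferon-induced genes outside antigen presentation and the chemokines, and all 31 were found. All 31 had a mean of at least 10 normalized counts over the 6 libraries, as did 13028 genes in all, and were tested. The RNA came from cortical cells of CD51-Flp mice, in which a virus carrying AAV-GFAP-FSF-hM3D-mCherry had been injected after birth. CD51 is integrin alpha V, and the vector expresses hM3D (a Gq-coupled designer receptor) and mCherry under the GFAP promoter only after Flp recombination. Mice of both groups carried this receptor and were given saline or the receptor's ligand, clozapine-N-oxide (CNO), on postnatal days 7 to 21, 2 times each day. The mCherry-positive cells were sorted on day 21, giving 3 CNO libraries (1, 2 and 3) and 3 saline libraries (3, 4 and 5). A CNO group without the receptor was not analysed here. Nothing in the labels ties a library to 1 animal or to a pool, and the p-values therefore cover the spread between these libraries and no more.

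Type I interferons bind the receptor pair Ifnar1 and Ifnar2, and the kinases Jak1 and Tyk2 then phosphorylate transcription factors that include Stat2. A complex that holds Stat2 and Irf9 binds a promoter element, the interferon-stimulated response element (ISRE), while interferon gamma acts on another, the gamma-activated site (GAS). The induced proteins block viral entry, translation and replication, sense foreign RNA and DNA, or feed back on the pathway. In the brain, microglia, macrophages, endothelial cells and astrocytes can all mount this response.

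Many of the genes carry ISRE letters just before their start site, and these stretches are shown because the fold changes below are set beside them. Promoter sequences of 300 bases, 250 before and 50 after each RefSeq start site on GRCm38.p6, were at hand for 22 of the 31 genes, in 27 windows. The letters GAAANNGAAA on either strand stood in at least 1 window of 12 of these 22 genes (54.5%) and of 3.99% of all 27025 genes with such windows. Each line reads 5′ to 3′ on the strand of the gene, with every match in capitals.
Isg15 (chr4:156200861-156200910, minus strand): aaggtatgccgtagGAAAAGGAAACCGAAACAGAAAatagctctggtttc
Ifit1 (chr19:34640775-34640823, plus strand): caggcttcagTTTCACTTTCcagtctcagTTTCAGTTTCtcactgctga
Ifit3 (chr19:34583370-34583419, plus strand): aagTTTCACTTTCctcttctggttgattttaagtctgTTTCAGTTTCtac
Bst2 (chr8:71537570-71537619, minus strand): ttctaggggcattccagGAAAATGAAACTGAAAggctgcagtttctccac
Gbp3 (chr3:142559982-142560031, plus strand): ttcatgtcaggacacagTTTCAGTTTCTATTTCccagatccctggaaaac
Oas1a (chr5:120907526-120907562, minus strand): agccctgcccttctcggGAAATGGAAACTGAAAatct
Stat2 (chr10:128270256-128270305, plus strand): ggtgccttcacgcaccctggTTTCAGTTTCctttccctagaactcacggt
Rsad2 (chr12:26456543-26456592, minus strand): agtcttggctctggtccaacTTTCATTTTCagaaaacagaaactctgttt
Trim30a (chr7:104465200-104465249, minus strand): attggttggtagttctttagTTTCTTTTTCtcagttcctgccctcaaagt
Isg15 held 3 overlapping matches, 66 to 78 bases before the start site. Matches in Ddx58, Ifih1 and Ifitm3 lay after the start site and are not printed. No match in the windows of the other 10 genes says only that these letters are not there. The GAS letters TTCNNNGAA, which read the same on both strands, stood in windows of 6 of the 22 genes (27.3%), Irf1, Ifit2, Oas1a, Bst2, Ifitm3 and Ifi35, and of 9.55% of all genes. In Bst2 and Ifitm3 a GAS match overlapped an ISRE match.

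The libraries differed in depth and in makeup. CNO 1 held 3908076 reads and the other 5 libraries 12010901 to 19224186, and 1 read equalled 4.23 normalized counts in CNO 1, against 0.503 to 0.970 elsewhere. All 10 astrocyte markers were detected in every library, Gfap with only 1 read in CNO 1. They summed to 513887.9, 330592.7 and 163813.8 normalized counts in CNO 1, 2 and 3 and to 174270.4 to 264250.6 in saline. The 8 oligodendrocyte markers summed to 1834099 to 3470445 normalized counts in CNO and 522746 to 745872 in saline. Most of this sum was Mbp, with means of 2420697 in CNO and 517551 in saline. Of the 8, 6 were higher in every CNO library, as were 4.57% of all tested genes. Mag and Cldn11 overlapped between groups and had ratios of means of 0.748 and 0.708. The summed level of the 10 microglia markers ran from 50869.6 to 154783.7 in CNO and from 91973.8 to 126104.2 in saline. The 8 markers of border-associated macrophages summed to 52156.2 to 100435.6 in CNO and 27865.5 to 43428.7 in saline, without overlap. Mrc1 held the largest part, with means of 38565.8 in CNO and 17603.2 in saline. Of these 8, only 3 (Mrc1, Pf4 and Lyve1) were higher in every CNO library, as were 4.57% of all tested genes, and the others overlapped. Of 9 T and NK cell markers, 8 were at 0 in all CNO libraries, where only Cd4 was detected. Cd3e, Nkg7 and Gzmb were at 0 in all saline libraries as well. Cd3d, Cd3g, Cd8a and Klrb1c held only 1 to 3 reads each in saline, while Icos was detected in every saline library. The sum of the 9, 178.5 to 642.3 in CNO and 663.8 to 1030.9 in saline, did not overlap either. It rested almost wholly on Cd4 and Icos. In such sorted bulk samples fewer cells of a type and less RNA per cell cannot be told apart, and the part of these cell types in the results below was not tested. Xist exceeded 10000 in CNO 2, CNO 3 and saline 4 alone, so sex-linked transcripts were not balanced between groups.

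None of the 31 interferon-stimulated genes passed the test of CNO against saline. In limma over all tested genes, 0 of the 31 had an adjusted p under 0.05, where 0.0154% of all tested genes did, and the lowest among them was 0.488. At an unadjusted p under 0.05, 2 of the 31 were lower in CNO, Rtp4 and Mx2 (7.25% of all tested genes were lower and 2.28% higher), and 0 were higher. On the recovered reads, 0 of the 31 passed in edgeR (0% of all tested genes did), in DESeq2 (2.15%) or in limma-voom (0.123%). At an unadjusted p under 0.05, edgeR had 2 of the 31 (9.33% of all tested genes), DESeq2 3 (12.7% of genes with a p) and limma-voom 4 (11.3%), shares near those of all genes. The log2 fold change was below 0 for 24 of the 31 genes and for 68.3% of all tested genes. Its median was -1.33 over the 31 genes and -0.89 over all tested genes. The ratio of means, CNO over saline, had a median of 0.962 over the 31 genes and 0.999 over all tested genes. The share of reads that fell in the interferon genes was 0.0771% ± 0.0192 in CNO and 0.122% ± 0.0217 in saline (mean ± SD, n = 3 each, as for all means below). With the reads of the oligodendrocyte markers taken out of the total it was 0.0956% ± 0.0293 and 0.130% ± 0.0217. Summed normalized counts overlapped, with 9090.0, 12351 and 14846 in CNO 1, 2 and 3 and 12914.9, 13155 and 9269.3 in saline 3, 4 and 5.

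**Figure D1:**
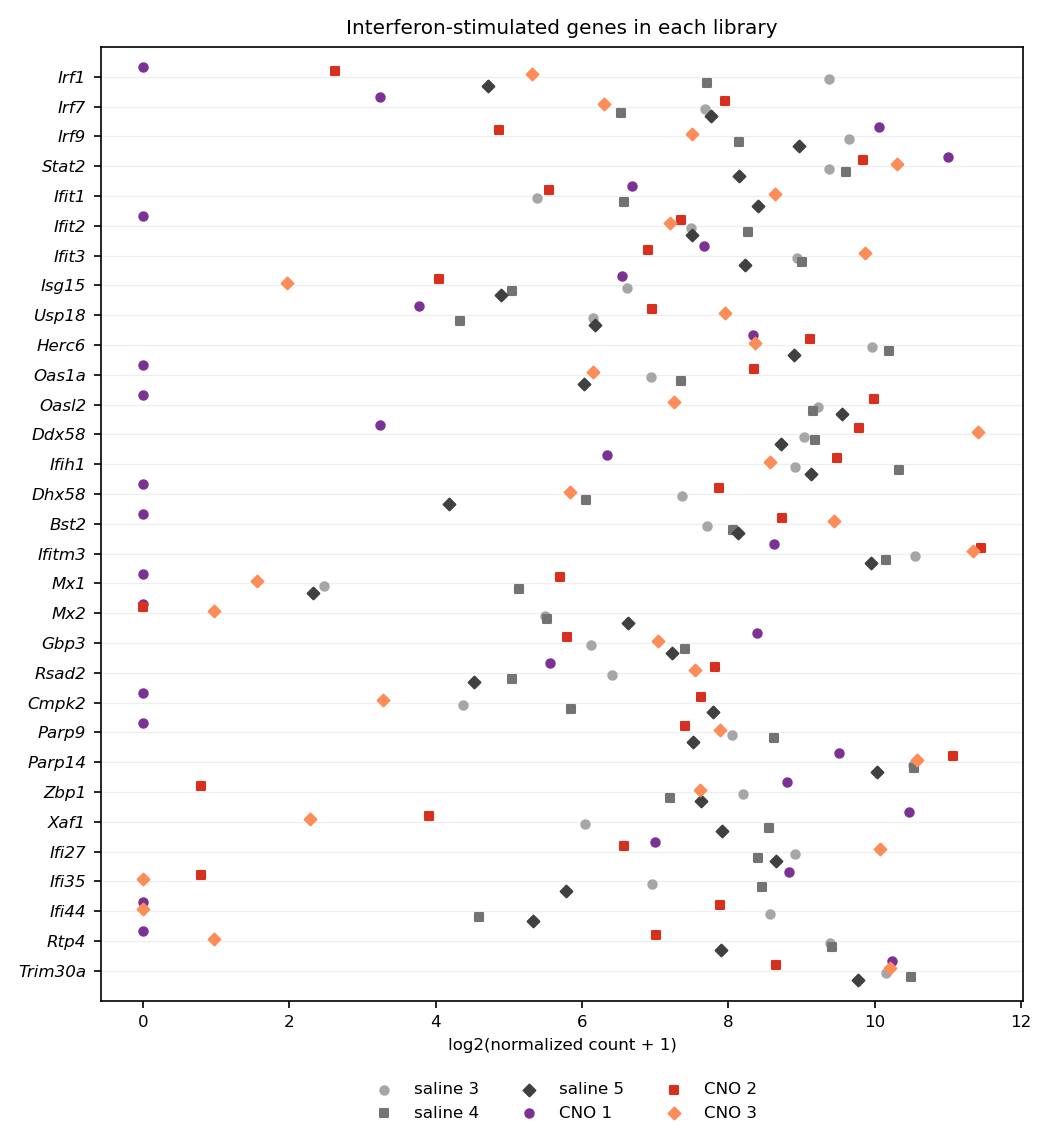
Log2 of the normalized count plus 1 (x axis) of the 31 interferon-stimulated genes (y axis), with 1 point per library, CNO libraries in colour and saline libraries in grey. CNO 1 stands at 0 for 12 of the 31 genes, CNO 2 for 1 and CNO 3 for 2, while no saline library stands at 0.

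The transcription factors that carry the interferon signal did not move together. Stat2, a transcription factor of the type I response, (chr10:128270559-128292849, GRCm38, plus strand) had 2058, 915 and 1264 normalized counts in CNO 1, 2 and 3. In saline 3, 4 and 5 it had 663, 777 and 282. Of the 31 genes it alone had every CNO library above every saline library, as did 4.57% of all tested genes. Its ratio of means was 2.46 and its log2 fold change 1.34 ± 0.71 (SE, limma adjusted p = 0.558). Irf9, the DNA-binding subunit that joins Stat2, stood at 1065, 28.1 and 180 in CNO, against 802, 283 and 501 in saline. CNO 1 was thus above all saline libraries and CNO 2 and 3 below them, and the log2 fold change was -1.45 ± 1.29 (adjusted p = 0.682).

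Irf1, a factor induced by interferon gamma and by inflammatory signals, stood at 0, 5.18 and 38.8 in CNO, against 664, 207 and 25.2 in saline. Saline 5 lay below CNO 3, so the groups overlapped in spite of the ratio of means of 0.0490 (log2 fold change -4.62 ± 2.20, adjusted p = 0.543). Irf7, which amplifies type I interferon production, stood at 8.45, 247 and 77.6 in CNO, against 204, 92.0 and 217 in saline. Its CNO libraries lay on both sides of the saline range (-1.50 ± 1.62, adjusted p = 0.731).

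The IFIT proteins bind viral RNA and hold back its translation, and their genes lie in 1 cluster on chromosome 19. Ifit2 (chr19:34550694-34576419) stood at 0, 162 and 147 in CNO, against 178, 308 and 181 in saline. Every CNO library was below every saline library (log2 fold change -2.90 ± 2.07, limma adjusted p = 0.639). With CNO 1 left out the value was -0.48. Ifit3 stood at 203, 119 and 930 in CNO, against 491, 513 and 298 in saline. Its CNO 3 library was above the saline range and the other two below it (-0.58 ± 1.01, adjusted p = 0.832). Ifit3 shares 51.2% of its 50-base windows with Ifit3b, so its reads may be split between the copies. Ifit1 ranged from 45.9 to 396 in CNO and from 40.8 to 339 in saline, almost the same range (0.16 ± 1.49, adjusted p = 0.973).

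Isg15 encodes a ubiquitin-like modifier, Herc6 the mouse ligase that attaches it and Usp18 the protease that removes it and damps receptor signalling. Isg15 ranged from 2.91 to 93.0 in CNO and from 28.7 to 96.9 in saline, and only CNO 2 and 3 lay below the saline range. Herc6 stood at 321, 552 and 328 in CNO, against 1001, 1173 and 478 in saline. CNO 1 and 3 were below all saline libraries and CNO 2 was above saline 5 (-1.09 ± 0.76, limma adjusted p = 0.634). Other annotated genes share 12.5% of the windows of Herc6. Usp18 averaged 127 ± 117 in CNO and 53.7 ± 29.8 in saline, with CNO 2 and 3 above the saline range and CNO 1 below it.

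The sensors of viral RNA spread widely between CNO libraries, Ddx58 and Dhx58 more than Ifih1 (SD of log2 values 4.33, 4.09 and 1.61). Ddx58 (chr4:40203773-40239828), which encodes the sensor RIG-I, stood at 8.45, 883 and 2725 in CNO, against 521, 582 and 422 in saline. CNO 2 and 3 exceeded every saline library, while CNO 1 held 2 reads. The log2 fold change was -0.83 ± 1.70 with all libraries (limma adjusted p = 0.857), and 1.62 ± 0.63 without CNO 1 (adjusted p = 0.398). Ifih1, which encodes the sensor MDA5, stood at 80.3, 715 and 380 in CNO, against 482, 1291 and 560 in saline. CNO 1 and 3 lay below the saline range (-1.33 ± 0.99, adjusted p = 0.649). Dhx58, the third helicase of this family, LGP2, was at 0 in CNO 1 and at 17.1 to 233 in the other libraries of either group.

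The 2′-5′-oligoadenylate synthetase family makes a second messenger that activates RNA decay. Oasl2, a relative of these enzymes, stood at 0, 1014 and 152 in CNO, against 598, 570 and 747 in saline. The CNO libraries fell on both sides of a narrow saline range, and their SD of log2 values was 5.16 against 0.21 in saline (log2 fold change -3.56 ± 2.07, limma adjusted p = 0.589). Oas1a was at 0 in CNO 1, at 324 in CNO 2, and at 64.4 to 163 in the remaining libraries. It shares 57.6% of its windows with Oas1g, so its counts are uncertain.

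At the membrane, Ifitm3 blocks the fusion of viral envelopes and Bst2 (tetherin) holds budding particles. Ifitm3 stood at 393, 2813 and 2604 in CNO, against 1506, 1135 and 990 in saline. It had the highest level of the 31 genes per length, 2321 normalized counts per kb of exon, with Bst2 next at 347 per kb. CNO 2 and 3 exceeded every saline library and CNO 1 was below them all (0.26 ± 0.78, limma adjusted p = 0.909). Ifitm3 shares 10.0% of its windows with other genes. Bst2 showed the same split, at 0 in CNO 1, at 425 and 698 in CNO 2 and 3 and at 209 to 279 in saline.

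The GTPases Mx1 and Mx2 are antiviral proteins that many laboratory mouse strains carry in defective form, and the annotation lists Mx2 as a polymorphic pseudogene. Mx2 (chr16:97535308-97560900) held 1 read in the 3 CNO libraries together, in CNO 3, and 44.2, 44.8 and 98.1 normalized counts in saline 3, 4 and 5. The pooled ratio of CNO to saline was 0.00580, with an exact 95% interval of 1.46e-04 to 0.0326 that covers counting error only. Its log2 fold change was -5.56 ± 1.77 (limma unadjusted p = 0.00893, adjusted p = 0.488). Mx1, 72401 bases away, ranged from 0 to 51.1 in CNO and from 4.03 to 34.4 in saline. Gbp3, of the guanylate-binding family, had a mean of 173 ± 144 in CNO and of 129 ± 53.5 in saline.

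Rtp4 (chr16:23520291-23614222), a chaperone of membrane receptors that interferon induces, was the other gene with an unadjusted p under 0.05. It stood at 0, 129 and 0.970 in CNO, where the last value is 1 read, and at 667, 681 and 238 in saline. All CNO libraries lay below all saline libraries, with a ratio of means of 0.0818 (log2 fold change -6.23 ± 2.11, limma unadjusted p = 0.0128, adjusted p = 0.488). A same-strand model shares 11.6% of its windows. Ifit2, Mx2 and Rtp4 were the 3 genes of the 31 that were lower in every CNO library, where 12.5% of all tested genes were.

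Rsad2 (viperin) and Cmpk2 make and supply antiviral nucleotides and lie 12752 bases apart on chromosome 12 in opposite orientation. Rsad2 averaged 152 ± 93.7 in CNO and 46.0 ± 33.2 in saline, a ratio of 3.31, the highest of the 31. CNO 2 and 3, at 224.9 and 185, exceeded every saline library, and CNO 1, at 46.5, stood within their range (1.65 ± 1.62, limma adjusted p = 0.709). Cmpk2 did not follow it, at 0, 197 and 8.73 in CNO and 19.8 to 220 in saline. The ADP-ribosyltransferase Parp14 stood at 727, 2157 and 1524 in CNO, against 1468, 1489 and 1049 in saline. Its groups overlapped on both sides (0.02 ± 0.61, adjusted p = 0.994). Parp9 ranged from 0 to 236 in CNO and from 183 to 393 in saline. It shares 458 exonic bases with Dtx3l on the opposite strand, and strand handling is not given in the sources used here.

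A further set was high in CNO 1, the library in which most others were low. Xaf1, a promoter of cell death, stood at 1412, 14.1 and 3.88 in CNO, against 65.2, 377 and 241 in saline. The value in CNO 1 was the highest of the 6 and those in CNO 2 and 3 the lowest (-1.96 ± 2.09, limma adjusted p = 0.728). Ifi35, an interferon-induced leucine zipper protein, had the same order, with 452, 0.740 and 0 in CNO and 53.9 to 351 in saline. Zbp1, a sensor of Z-form nucleic acids, stood at 444 in CNO 1 and at 0.740, a single read, in CNO 2. In CNO 3 it stood at 195, within the saline range of 146.5 to 292, and its ratio of means was 1.01. Stat2, Irf9 and Gbp3 were also highest in CNO 1. Ifi27, a mitochondrial protein, stood instead at 127, 94.7 and 1076 in CNO, against 479, 337 and 401 in saline, with the highest value in CNO 3 (-0.77 ± 1.10, adjusted p = 0.791). Trim30a, a regulator of innate signalling, stood at 1204, 403 and 1187 in CNO, against 1141, 1446 and 872 in saline, where CNO 2 alone was outside the saline range (-0.44 ± 0.68, adjusted p = 0.806). Ifi44 was at 0 in CNO 1 and 3, at 236 in CNO 2 and at 23.2 to 380 in saline.

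**Figure D2:**
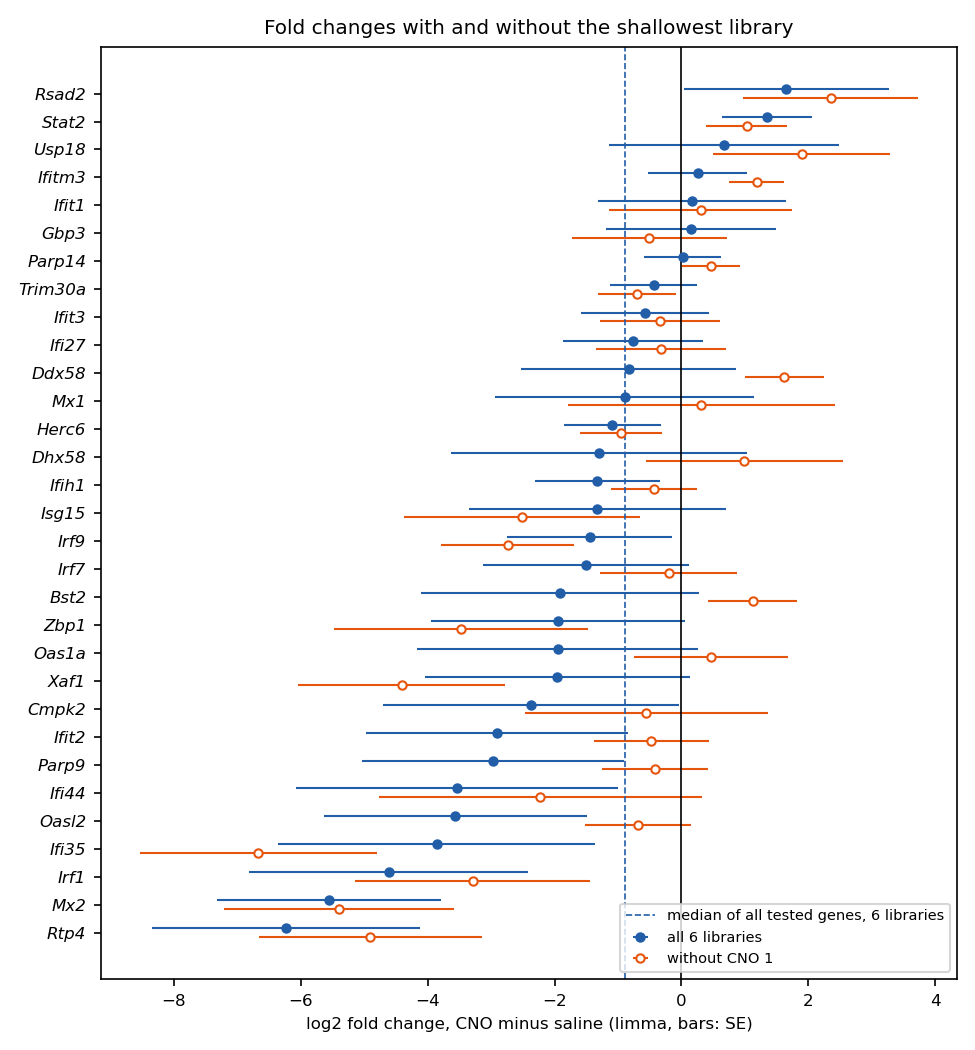
Log2 fold change of CNO minus saline with its SE (x axis) for each interferon-stimulated gene (y axis), with all 6 libraries (filled) and without CNO 1 (open). Ddx58, Bst2, Dhx58, Oas1a and Mx1 pass from below to above 0 when CNO 1 is left out, and Gbp3 passes from above to below. Rtp4 and Mx2 lie at -4.90 and -5.39 without it.

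The spread between CNO libraries was larger than between saline libraries for 28 of the 31 genes, measured as the SD of log2 values, and for 80.6% of all tested genes. The median SD was 2.60 in CNO and 0.70 in saline, against 2.15 and 0.81 over all tested genes. For 17 of the 31 genes, 1 CNO library was above the saline range and another below it. That share, 54.8%, compares with 39.1% of all tested genes. CNO 1 had 21 of the genes below the saline range and 6 above it, CNO 2 had 14 and 12, and CNO 3 had 14 and 10. Among all tested genes 52.0%, 33.4% and 43.7% were below the range and 26.1%, 28.3% and 29.3% above it in CNO 1, 2 and 3.

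**Figure D3:**
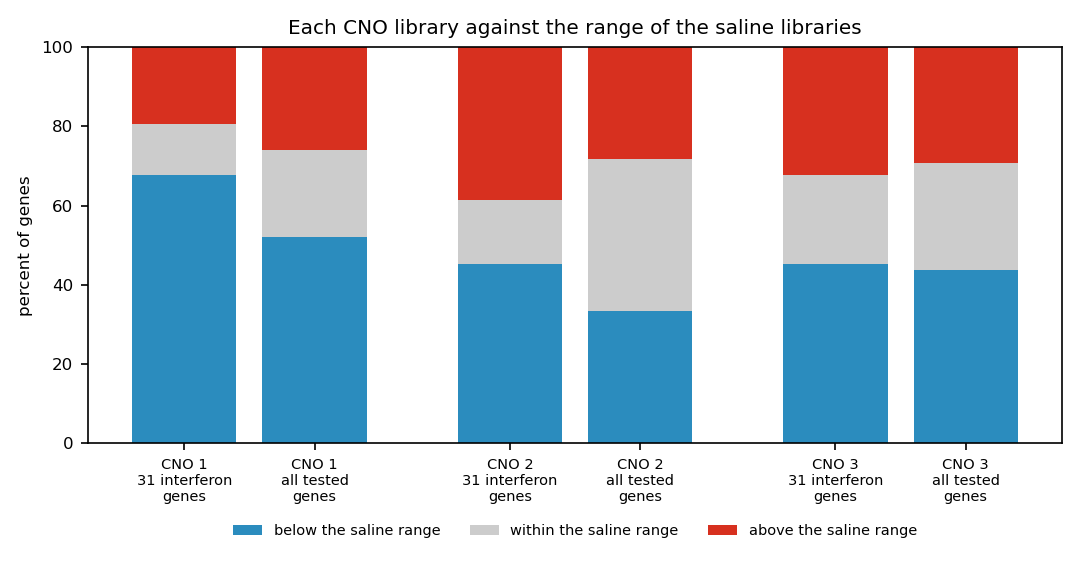
Percent of genes (y axis) below, within or above the range of the 3 saline libraries in each CNO library, for the 31 interferon-stimulated genes and for all tested genes. In CNO 2, 12 of the 31 genes are above the range and 14 below it, so 5 remain within it.

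Detection followed the same order. Reads were found for 19, 30 and 29 of the 31 genes in CNO 1, 2 and 3 and for all 31 in each saline library. With every library reduced to the total reads of CNO 1, the expected numbers were 19.0, 28.2 and 26.0 in CNO and at least 30.8 in saline. The reads of oligodendrocyte markers, which took a larger share in CNO, were kept in these totals. The share of all tested genes at 0 was 35.2%, 8.93% and 20.1% in CNO 1, 2 and 3 and 3.39% to 3.88% in saline. Among the 3203 tested genes with a mean of 100 to 300, 34.1% were at 0 in CNO 1, as were 6 of the 11 interferon genes of that level. From 10 to 50 the values were 79.6% and 2 of 3 genes, from 50 to 100 59.2% and 2 of 4, and from 300 to 1000 10.0% and 2 of 10.

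Without CNO 1, the interferon genes split in both directions. The 7 genes higher in both remaining CNO libraries than in any saline library were Stat2, Usp18, Ddx58, Bst2, Ifitm3, Rsad2 and Parp14, where 10.9% of all tested genes were. The 7 genes lower in both were Irf9, Ifit2, Isg15, Mx2, Xaf1, Ifi35 and Rtp4, where 18.3% of all tested genes were. The median log2 fold change of the 31 genes was then -0.43, against -0.45 over all tested genes, and 20 of the 31 were below 0 (60.3% of all tested genes). No gene of the 31 passed in limma without CNO 1, where 0% of all tested genes did, and the lowest adjusted p among them was 0.386, for Mx2 and Ifi35.

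Over all tested genes the median fold change differed between bands of mean level, so the interferon genes were set beside genes of like level. Of the 31 genes, 23 lay below the median of all tested genes in the same band of mean level. In the bands of 10 to 50 and 50 to 100 normalized counts the medians were -1.33 for 3 interferon genes and -0.31 for 4, above those of all genes, -2.33 and -2.20. In the band of 100 to 300 the median was -2.90 for 11 interferon genes and -1.44 for all genes. From 300 to 1000 it was -1.21 for 10 interferon genes and -0.35 for all genes, and from 1000 to 10000 it was 0.02 for 3 and 0.33. Of the 31 genes, 15 lay below their band's median without CNO 1, 19 without CNO 2, 23 without CNO 3, and 16 in edgeR and in DESeq2.

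**Figure D4:**
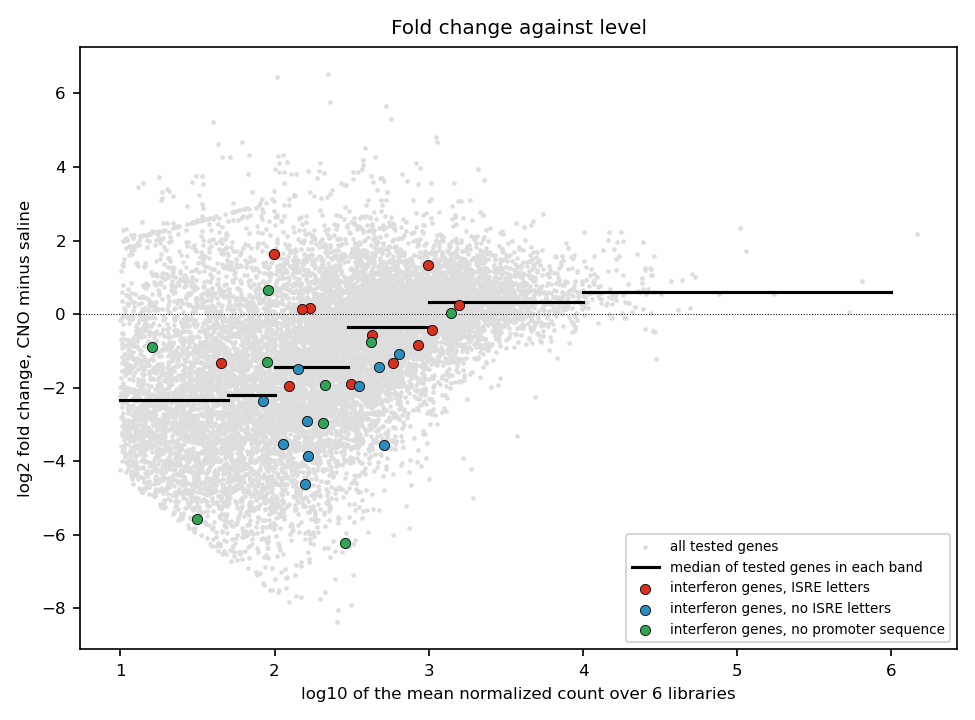
Log2 fold change of CNO minus saline (y axis) against log10 of the mean normalized count (x axis) for all tested genes (grey) and the 31 interferon-stimulated genes, coloured by whether a promoter window holds the letters GAAANNGAAA. Horizontal bars give the median of all tested genes in each band of level, and no blue point (no ISRE letters) lies above 0.

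The 12 genes with the letters had a median log2 fold change of -0.51 and 5 were above 0, namely Stat2, Ifit1, Ifitm3, Gbp3 and Rsad2. The 10 genes with windows but without the letters had a median of -2.64 and 0 above 0. The genes with the letters were also more abundant, with a median of 369 normalized counts against 163, and 10 of 12 against 4 of 10 had a read in every library. Restricted to the genes read in all 6 libraries, the medians were -0.14 for 10 with the letters and -1.47 for 4 without. Among all tested genes the medians with and without the letters were -0.97 (375 genes) and -0.89 (9480 genes). Among all tested genes read in all 6 libraries they were -0.28 (219 genes) and -0.10 (5447 genes), the opposite order to the interferon genes. Without CNO 1 the medians of the interferon genes were 0.38 and -1.59, and in edgeR 0.18 and -0.73. Of the 10 interferon genes without the letters, 1 was above 0 in edgeR, 1 in DESeq2 and 2 with quantile scaling. These groups were formed after the fold changes were known and were not tested, and a match in a window is not a measured binding site.

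The genes upstream gave no call either. Of 21 interferon ligands in the table, 19 were at 0 in all 6 libraries, Ifnb1 and Ifng among them. Ifnk was detected in saline 5 alone, with 78 reads, and Ifnz in saline 3 and 5, with 98 and 40 reads. A count of 0 allows up to 3 reads per library. Ifnar1, the type I receptor chain, stood at 1982, 1201 and 2090 in CNO, against 2252, 1728 and 1093 in saline (0.07 ± 0.55, limma adjusted p = 0.967). Ifnar2 had a log2 fold change of -0.77 ± 0.99 (adjusted p = 0.768). Ifngr1, the ligand-binding chain for interferon gamma, was lower in every CNO library, at 1179, 1262 and 1089 against 1635, 1811 and 1919 (-0.60 ± 0.52, adjusted p = 0.675). It was the 1 such gene of the 5 tested receptor genes, where 12.5% of all tested genes were lower in every CNO library. Ifngr2 had -1.65 ± 1.36 and Il10rb, the shared chain of the lambda receptor, -3.55 ± 2.02. Of 6 receptor genes, 5 were tested and 0 passed.

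Among 10 signalling genes, 0 passed. Jak1 had a log2 fold change of 0.06 ± 0.48 (limma adjusted p = 0.969). Tyk2 had -1.95 ± 2.24, Kpna1 -0.53 ± 0.95 and Irf3, which starts interferon transcription after sensing, -0.24 ± 2.03, with 1407, 2.22 and 466 in CNO and 79.9 to 313 in saline. The sign of these 3 genes turned in DESeq2, to 0.96, 0.12 and 1.82, and their ratios of means were 1.95, 1.09 and 3.55. Irf8, a factor of microglia and other myeloid cells, was lower in every CNO library, at 309, 809 and 1471 against 1484, 2294 and 2886 (-1.58 ± 0.69, unadjusted p = 0.0426, adjusted p = 0.522). It was the 1 such gene of the 10 signalling genes, and Sall1 the 1 such marker of 10 for microglia. Both shares are near the 12.5% of all tested genes. Csf1r ranged from 20813.8 to 68380.2 in CNO and from 37091.0 to 37831.5 in saline.

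Sensing genes and inhibitors of the pathway were tested as well. Of 16 sensing genes, 0 passed, and 2, Tlr9 and Mb21d1 (cGAS), were lower in every CNO library, the same share as the 12.5% of all tested genes. Their log2 fold changes were -4.02 ± 1.96 and -3.57 ± 2.10 (limma adjusted p = 0.550 and 0.591), and Trex1, a DNase that limits sensing, had -3.91 ± 2.42 (0.603). Of 9 tested negative regulators 0 passed in limma. Ptpn11, which encodes the phosphatase SHP2, stood at 4598, 4215 and 3680 in CNO, against 573, 847 and 1108 in saline (2.35 ± 0.52, limma adjusted p = 0.488). DESeq2 called it (adjusted p = 0.0196), as it did 2.15% of genes with an adjusted p. Ptpn6, which encodes the related SHP1 of blood cells, had -1.76 ± 0.98 and was lower in every CNO library. Cish, an inhibitor of cytokine signalling, was at 0 in all CNO libraries and at 1.70, 85.6 and 59.4 in saline 3, 4 and 5, where the value in saline 3 is 3 reads. Of the 9 negative regulators, 1 (Ptpn11) was higher in every CNO library and 2 (Ptpn6 and Cish) were lower, beside 4.57% and 12.5% of all tested genes.

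A wider list of interferon-induced genes gave no call. Of 68 tested genes, 0 passed in limma and the median log2 fold change was -1.23, with 51 below 0 (-0.89 and 68.3% over all tested genes). At an unadjusted p under 0.05, 2 were lower, Parp10 (-5.24 ± 1.76, limma adjusted p = 0.488) and Trim12c (-4.28 ± 1.95, 0.523), and 0 were higher, where 7.25% and 2.28% of all tested genes were. Parp10 held 1 read in CNO and 261 in saline. Without overlap 7 were lower, Gbp4, Gbp6, Igtp, Irgm1, Parp10, Pnpt1 and Trim12c, and 0 higher, beside 12.5% and 4.57% of all tested genes. Gbp2, whose groups overlapped, had -4.84 ± 2.26 (adjusted p = 0.533). Without CNO 1 the median was -0.15 (-0.45 over all tested genes), with 37 below 0. Then 9 of the 68 were higher and 13 lower in both CNO libraries, near the 10.9% and 18.3% of all tested genes.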

How the data were processed

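RNA of sorted cells was sequenced in 6 libraries from 10 ng of total RNA each, per the labels' protocols. STAR 2.5.0a, DESeq2 1.20.0, Trimmomatic 0.4, MultiQC 0.9 and FastQC 0.10.1 are named, with build mm10, per the submitters' processing notes. Which annotation, counting tool and strand setting were used is not given in the sources. The unit of the deposited table is a signal: normalized counts, whose values are counts divided by 1 size factor per library by the authors. All values (100% in each library) were whole multiples of 1 step within 1e-06 reads, so whole reads were recovered. No column was without a library.

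Genes with a mean of at least 10 were tested with limma 3.58.1 (R 4.3.3) on log2(normalized count + 1), with a variance trend, 2-sided tests and Benjamini-Hochberg adjustment over all 13028 genes at 0.05. Fold changes are on that scale, where the added 1 shrinks changes of low genes. A 0 in 1 CNO library can instead make a fold change larger than the ratio of means. Oasl2, at 0 in CNO 1, had -3.56 with a ratio of means of 0.609, and Bst2 -1.91 with 1.49. All 13 interferon genes with a 0 in some library were below 0 (median -2.97). The 18 read in every library had a median of -0.67, with 11 below 0 and 7 above. The method was tested on simulated data. edgeR 4.0.16, limma-voom and DESeq2 1.42.0 ran on the recovered reads. Reads carry no molecular identifiers, so intervals and the floor of 3 reads cover counting error only. Values per library are given for the transcription factors, the 12 genes with the largest means, and genes with an unadjusted p under 0.05 or no overlap between groups. For pathway lists the 3 tested genes with the smallest p and the receptors, Jak1, Tyk2 and Irf3 are named, 1 item is not reported here, and other genes were named after their values were seen. Exons and 50-base windows shared with other genes are from GENCODE mouse release 21 (GRCm38, the assembly of mm10). Promoter sequences are from RefSeq. The genes and lists were chosen with earlier results of these data known. Figures were drawn with matplotlib 3.10.9.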

Additional observations from a re-analysis of the deposited data

How the results depend on the processing

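No paired analysis was possible because the groups share only replicate number 3. The count of 0 calls among the 31 genes held under all 16 alternatives, and wide errors limit what it can show: among 480 pairs of a gene and an alternative, 0 brought a gene past the threshold and 46 turned its sign, over 18 genes. Over all genes, the 2 calls (both higher) became 242 in DESeq2 (66 higher), 16 in limma-voom, and 0 in edgeR, with a mean of at least 50, with quantile scaling, with genes read in every library and with any 1 library left out (0 to 0). Calls in the pathway lists went from 0 to 1 in DESeq2. The median of the 31 genes, -1.33, was -0.054 in DESeq2 and -0.19 in edgeR, and -1.73 to -0.43 with 1 library left out, the highest without CNO 1. The median of all genes was -0.08 with quantile scaling, -0.11 in edgeR and 0.003 in DESeq2. The 4 genes without overlap, beside 17.1% of all tested genes, became 4 to 14 with 1 library left out. There were 14 without CNO 1, 11 without CNO 2, 8 without CNO 3 and 7 without saline 5. Leaving a library out can only remove overlap, in any gene. Without CNO 1, 10.9% of all tested genes were higher without overlap and 18.3% lower. Such shares were not computed with the other libraries left out. The cause of these changes was not tested.

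In DESeq2 the log2 fold changes that turned were 0.18 for Oas1a, 1.25 for Ddx58, 0.24 for Dhx58, 0.57 for Bst2, 0.32 for Mx1, 0.003 for Zbp1, 1.06 for Xaf1 and 0.095 for Ifi27. In edgeR they were 0.12 for Oas1a, 1.19 for Ddx58, 0.17 for Dhx58, 0.51 for Bst2, 0.28 for Mx1, 0.82 for Xaf1 and 0.010 for Ifi27. With quantile scaling they were 0.20 for Irf7, 1.04 for Isg15, 0.14 for Oas1a, 1.10 for Dhx58, -0.13 for Ifitm3, 1.95 for Mx1, 0.29 for Cmpk2 and -0.44 for Parp14. In limma-voom they were -0.083 for Ifit1, 0.41 for Ddx58 and -0.20 for Gbp3, and with TMM scaling -0.10 for Parp14. With 1 library left out the turning genes ranged from -0.68 to 0.97 (Ifit1), -1.44 to 0.043 (Ifit3), -0.19 to 1.89 (Usp18), -3.71 to 0.47 (Oas1a), -2.47 to 1.62 (Ddx58), -2.95 to 0.99 (Dhx58), -3.60 to 1.12 (Bst2), -0.24 to 1.18 (Ifitm3), -2.54 to 0.31 (Mx1), -0.51 to 0.79 (Gbp3), -0.33 to 0.46 (Parp14), -3.47 to 0.53 (Zbp1) and -0.71 to 0.083 (Trim30a). Stat2, Rsad2, Rtp4, Mx2, Irf1 and Ifit2 were among the 13 genes that kept their sign under every alternative run. The medians by ISRE letters under other fits were chosen after seeing the data.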
